A study of Mus musculus with 16 samples.

Results

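The cytosolic ribosome is built from ribosomal RNA and a fixed set of proteins, and the genes for these proteins are described here in mouse hearts without CAP2, an actin-binding protein needed for filament turnover in the sarcomere. Genes were chosen by symbol, as those starting with Rpl or Rps and a number, the acidic stalk genes Rplp0, Rplp1 and Rplp2, and Rpsa, leaving out the kinase genes Rps6k, the binding protein gene Rps19bp1 and names ending in -ps. This gave 86 of 38087 gene rows in experiment A and 92 of 54232 in experiment B, of which 85 were shared by Ensembl identifier. The rule uses names only and no measured value. It therefore also takes in rows that GENCODE annotates as processed pseudogenes, some of them transcribed. These are Rps4l and Rps12l1 in both experiments, and Rps3a2, Rps3a3, Rpl6l, Rpl32l and Rpl37rt in experiment B only. They are counted among the members.

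Proteins with the prefix Rpl belong to the large (60S) subunit and those with the prefix Rps to the small (40S) subunit. Most are made in every cell in matched amounts, from mRNAs that start with a tract of pyrimidines and are translated together under control of mTOR. A few have a paralog of restricted expression. Rpl3l encodes such a paralog of Rpl3, a core protein of the large subunit near the peptidyl transferase centre. It is expressed in heart and skeletal muscle, where its protein takes the place of RPL3 in part of the ribosomes, and variants of the human gene are linked to cardiomyopathy.

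Experiment A compared whole hearts of 86-week-old female C57BL/6 mice, 3 CAP2-/- libraries with both copies of Cap2 disrupted and 3 WT libraries. Experiment B compared hearts of 13-week-old C57BL/6 mice in which both Cap2 alleles carried loxP sites. Of these, 4 Cre+ libraries (3 female, 1 male) came from mice with Cre under the cardiomyocyte promoter Myh6, and 5 control libraries (3 female, 2 male) from mice without Cre, so that loss of Cap2 and presence of the transgene cannot be told apart. Cap2 averaged 12.2 ± 3.89 CPM in CAP2-/- and 214 ± 15.7 CPM in WT (SD, n = 3 each), and 65.0 ± 24.2 normalized counts in Cre+ (SD, n = 4) and 391 ± 288 in controls (SD, n = 5), or 269 ± 109 without control replicate 4 (SD, n = 4). The estimated counts of experiment A summed to 10750175 to 27440478 per library, while the depth behind the normalized counts of experiment B is unknown. The experiments used different library kits and were each tested within their own table.

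Where the labelled tissue is concerned, all 12 cardiomyocyte markers examined were detected and tested in both experiments. The libraries were of whole hearts, so that fewer cells of a type and less RNA per cell cannot be told apart. Control replicate 4 of experiment B, a male, stood apart in the ribosomal protein genes. It was the lowest of the 5 controls for 81 of the 83 members tested, against 36.9% of all genes tested, and the members' median was 2.89-fold below the other controls there. Genes other than the members were also lower in that library where they were short. The median was 2.19-fold lower for those with an exonic length under 1000 bases. It was 1.56-fold lower from 1000 to 2000 bases, 1.18-fold lower from 2000 to 4000, and 1.05-fold higher for those of at least 4000 bases. Most members tested have an exonic length of 1000 to 4000 bases. The fold changes of the members in experiment B are therefore given with and without control replicate 4.

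Rpl3l lies on the plus strand of chromosome 17 (ENSMUSG00000002500, 24727820 to 24736143, mm10, GENCODE M21), and Rpl3 on the minus strand of chromosome 15 (ENSMUSG00000060036, 80077791 to 80091868). The start of each coding sequence is shown because the genes' separate counts rest on how far these sequences differ. Capitals mark bases that are identical in the alignment, 89 of the 120 shown. The Rpl3l stretch runs over chr17:24727884-24728433 and the Rpl3 stretch over chr15:80082466-80083326 (minus strand), each interrupted by an intron.
Rpl3l: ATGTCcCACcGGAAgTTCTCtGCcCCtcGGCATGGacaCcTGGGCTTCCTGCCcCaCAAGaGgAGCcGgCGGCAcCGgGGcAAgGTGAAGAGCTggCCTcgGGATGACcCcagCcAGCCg
Rpl3: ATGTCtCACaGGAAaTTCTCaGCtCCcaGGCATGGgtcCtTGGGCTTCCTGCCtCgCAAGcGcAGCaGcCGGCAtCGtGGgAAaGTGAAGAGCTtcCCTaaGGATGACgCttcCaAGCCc
Over the whole coding sequence, 73.2% of the aligned positions were identical, and the longest run that the transcripts have in common was 22 bases. No pseudogene named after Rpl3l is annotated, whereas 60 of the 93 members in all have at least 1 annotated pseudogene named after them, up to 24 for 1 gene, between which reads could be split.

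The regions around the starts of Rpl3l transcripts are shown because the results turn on this gene. They are the 150 bases before and the 25 after each start that RefSeq gives it (GRCm38.p6, plus strand). The first start lies at the beginning of the gene, while the second region lies within it, in the intron between exons 4 and 5. Capitals mark a pyrimidine tract near the start or a motif of the muscle factor MEF2. The tract marked in the first region begins 9 bases after the start, not at it.
Rpl3l, chr17:24727676-24727850: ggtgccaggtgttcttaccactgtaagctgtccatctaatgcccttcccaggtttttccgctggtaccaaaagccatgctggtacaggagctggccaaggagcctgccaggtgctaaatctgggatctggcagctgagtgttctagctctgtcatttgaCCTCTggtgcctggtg
Rpl3l, chr17:24732535-24732709: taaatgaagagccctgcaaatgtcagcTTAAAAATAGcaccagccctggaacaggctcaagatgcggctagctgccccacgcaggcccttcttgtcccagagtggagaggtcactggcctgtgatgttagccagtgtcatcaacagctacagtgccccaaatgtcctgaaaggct
The promoter of Rpl14 serves as an example of the pyrimidine tract of the family, in capitals. There the tract begins 8 bases before the start.
Rpl14, chr9:120571367-120571541: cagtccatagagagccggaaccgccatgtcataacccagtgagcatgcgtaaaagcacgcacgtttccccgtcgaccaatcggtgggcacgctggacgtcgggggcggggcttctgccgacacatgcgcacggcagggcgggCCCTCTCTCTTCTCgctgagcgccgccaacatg
RefSeq windows of 250 bases before to 50 after the start were at hand for 67 members (79 windows). A tract made of a C and at least 4 further pyrimidines, starting within 10 bases of the start on the sense strand, was in 54.4% of the member windows and in 30.7% of all 32851 windows. The other motifs were searched on both strands of the 300 bases. The MEF2 motif was in 1.27% of the member windows, that of Rpl3l alone, and in 3.19% of all. The CArG box bound by SRF, the factor in the study's title, was in 1.27% of the member windows, that of Rpl10a, and in 1.63% of all. CANNTG, the E-box, was in 50.6% of the member windows and 72.3% of all, CATTCC in 8.86% and 14.7%, AGATAA in 6.33% and 11.2%, and TATAAA in 10.1% and 13.6%. These are letter matches in the windows and no measurement of binding.

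The first question was how the ribosomal protein genes differed in the aged heart without CAP2. Rpl3l was lower in every CAP2-/- library. It had 154, 146 and 166.5 CPM in CAP2-/- hearts, against 237, 252 and 257 CPM in WT hearts. The groups did not overlap. The fall was 1.60-fold (log2 fold change -0.68, SE 0.11, edgeR adjusted p = 0.00312), and Rpl3l was called, with an adjusted p under 0.05, under each of the 12 settings tried, the adjusted p ranging from 1.60e-06 to 0.0294. In the authors' deposited table the log2 fold change of Rpl3l was -0.684 with an adjusted p of 1.29e-06.

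Rpl3, the partner of Rpl3l found in all tissues, differed in the other direction without passing the threshold. It had 34.0, 25.7 and 31.2 CPM in CAP2-/- hearts, against 21.7, 21.5 and 19.7 CPM in WT hearts. Here too the groups did not overlap, with each CAP2-/- library above each WT library. The log2 fold change was 0.53 (SE 0.15, edgeR adjusted p = 0.104), with an adjusted p between 0.0633 and 0.308 over the settings tried, whereas the authors' deposited table gives 0.526 with an adjusted p of 0.0436.

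Per base of transcript, Rpl3l had the higher counts of this pair in experiment A. Its mean was 147 CPM per kb over all libraries, against 19.0 CPM per kb for Rpl3. Unlike Rpl3l, Rpl3 has 2 annotated pseudogenes named after it, between which its reads could be split. The WT means of the Rpl3 exon rows were uneven, from 0.00976 to 7.35 CPM. How far reads assigned elsewhere lower the level of Rpl3, and so raise the ratio, was not tested. The ratio of the level of Rpl3l to that of Rpl3, each per transcript length, was 4.45, 5.55 and 5.25 in CAP2-/- hearts and 10.7, 11.5 and 12.8 in WT hearts. It depends on no scaling between libraries. The groups did not overlap, and the ratio was 2.30-fold lower in CAP2-/- hearts (difference of the mean log2 ratios -1.20). The exact two-sided permutation p was 0.1, the smallest that 3 against 3 libraries allow, or 0.3 after Benjamini-Hochberg adjustment over the 12 paralog ratios compared.

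**Figure D1:**
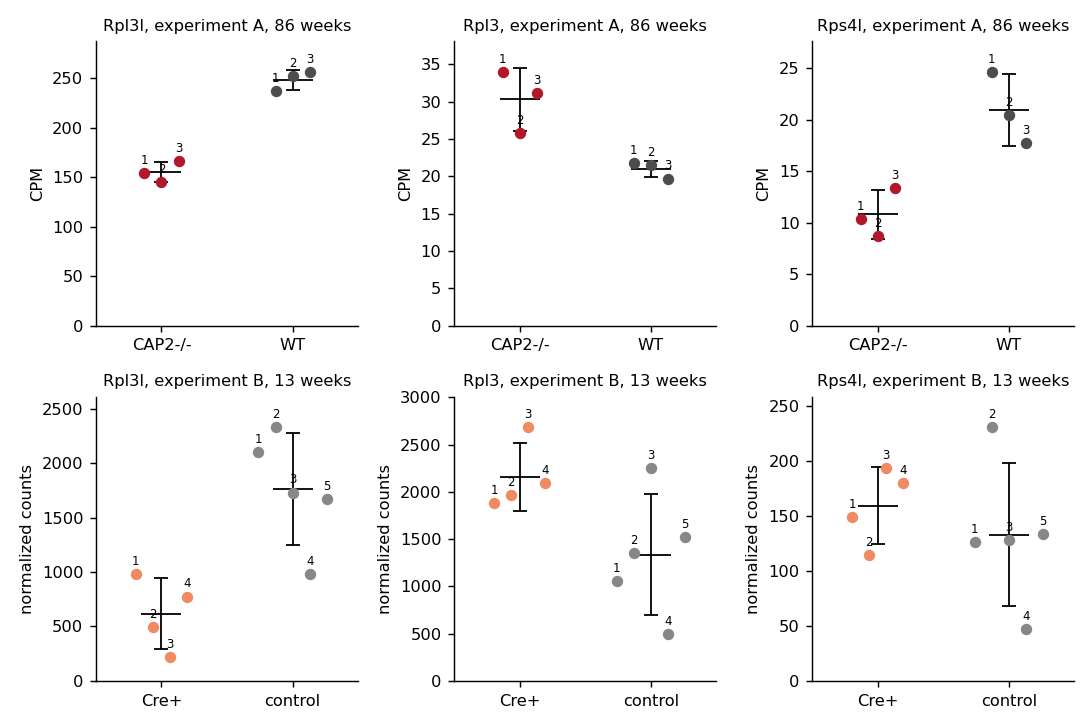
Level of Rpl3l, Rpl3 and Rps4l in each library (points, numbered by replicate), in CPM in experiment A (top) and normalized counts in experiment B (bottom), with the group mean and SD in black. Rpl3l lies at 146 to 166.5 CPM in CAP2-/- and 237 to 257 CPM in WT, and in experiment B the lowest control and the highest Cre+ library are both at 981.

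The lower level of Rpl3l ran along the gene. In the 10 exon rows of Rpl3l, the mean of the CAP2-/- libraries was 41.9% to 79.5% of the WT mean, and the groups did not overlap in 9 of them. The exception was exon 1, of 58 bases, with 0.944, 0.0471 and 0.370 CPM in CAP2-/- hearts and 0.695, 1.11 and 1.45 CPM in WT hearts. Exon 3, as an example of the body of the gene, had 23.3, 24.8 and 27.5 CPM in CAP2-/- hearts and 48.4, 37.0 and 40.9 CPM in WT hearts. The last exon was the nearest to the WT level, at 14.7, 12.2 and 14.6 CPM in CAP2-/- hearts and 14.8, 15.6 and 21.8 CPM in WT hearts. Of the 10 exon rows of Rpl3, 2 were higher in CAP2-/- without overlap, and the other 8 overlapped.

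**Figure D2:**
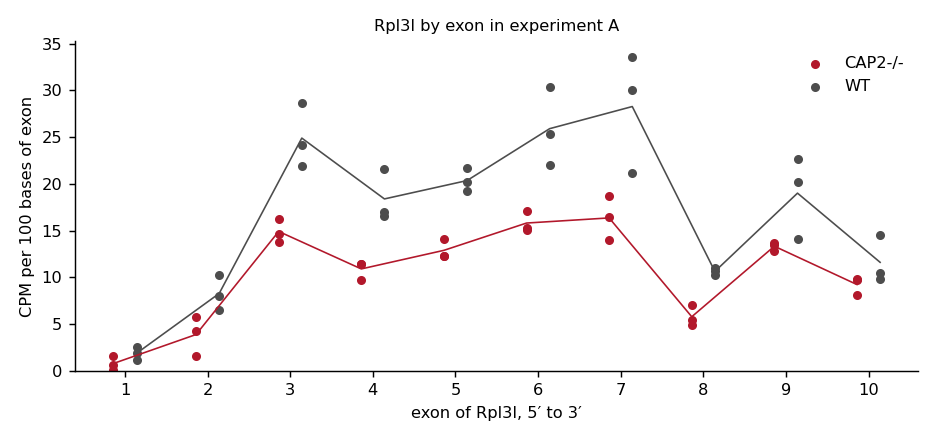
Level of Rpl3l by exon in experiment A, in CPM per 100 bases of exon, for each CAP2-/- (red) and WT (grey) library, with lines joining the group means. The CAP2-/- libraries lie below the WT libraries in 9 of the 10 exons and overlap them in exon 1.

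The other member called in experiment A was Rps4l, labelled Rps4y2 there (ENSMUSG00000063171), a relative of the 40S gene Rps4x that GENCODE annotates as a transcribed processed pseudogene on chromosome 6 (148354656 to 148355598, plus strand). It had 10.3, 8.72 and 13.4 CPM in CAP2-/- hearts, against 24.7, 20.5 and 17.7 CPM in WT hearts. The fall was 1.94-fold (log2 fold change -0.96, SE 0.19, edgeR adjusted p = 0.0178), with no overlap between the groups. The adjusted p was 0.112 without CAP2-/- replicate 2 and 0.104 without WT replicate 1. The authors' deposited table gives a log2 fold change of -0.958 with an adjusted p of 0.000462. Its parent Rps4x, on chromosome X, had 100.3, 87.5 and 92.3 CPM in CAP2-/- hearts and 80.9, 80.1 and 89.6 CPM in WT hearts, which overlapped (log2 fold change 0.16, SE 0.12, edgeR adjusted p = 0.712).

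The longest run common to Rps4l and the coding sequence of Rps4x is shown in capitals with its surroundings, since reads within it cannot be told apart between them; it begins at the start codon of Rps4x. The Rps4l stretch is chr6:148354685-148354769 (plus strand), and that of Rps4x is spliced from chrX:102188315-102189300 (minus strand).
Rps4l: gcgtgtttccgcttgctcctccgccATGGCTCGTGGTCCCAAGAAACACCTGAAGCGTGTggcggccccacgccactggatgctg
Rps4x: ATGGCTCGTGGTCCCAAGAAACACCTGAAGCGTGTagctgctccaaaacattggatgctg
The run is 35 bases long, and the aligned positions were 79.9% identical in all. The fall of Rps4l in CAP2-/- hearts stood beside no call on Rps4x.

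Across the family in experiment A, 84 of 86 members were tested. Rpl10l was at 0 in all 6 libraries and Rpl39l at 0 to 0.268 CPM, and neither passed the filter on low counts; both are retrogenes known for expression in testis. None of the 84 was called higher by edgeR, against 0.841% of all 16297 genes tested, and 2 were called lower, Rpl3l and Rps4l, against 0.509% of all genes. At an unadjusted p under 0.05, 7 members were higher, or 8.33%, against 5.11% of all genes, and 2 lower, or 2.38%, against 5.32%. DESeq2 also called 0 higher. The groups did not overlap for 6 higher members, or 7.14%, against 7.63% of all genes, and for 2 lower members, or 2.38%, against 8.0% of all genes. The shares of members that were higher without overlap and of genes at large were thus close.

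The members as a body lay near the WT level. The log2 fold change was positive for 56 of the 84, with a median of 0.089, against 0.006 over all genes tested. That median was -0.065 without CAP2-/- replicate 1 and 0.21 without CAP2-/- replicate 2, so that 1 library set its sign. CAP2-/- replicate 1 was the highest of its group for 62 members. Its median log2 difference from the WT mean was 0.33 for the members and 0.0083 for all genes tested. CAP2-/- replicate 2 was the lowest of its group for 70 members, against 34.3% of all genes tested. The summed share of the members in all counts was 0.506%, 0.438% and 0.469% in CAP2-/- hearts, against 0.466%, 0.466% and 0.483% in WT hearts, which overlapped.

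Among the 60S genes, Rpl26, whose protein lies near the exit of the peptide tunnel, had 80.0, 60.5 and 72.1 CPM in CAP2-/- hearts and 40.5, 47.4 and 61.8 CPM in WT hearts. The lowest CAP2-/- library was just below the highest WT library, and Rpl26 missed the threshold (log2 fold change 0.51, SE 0.16, edgeR adjusted p = 0.170) except without a filter on low counts (adjusted p = 0.0290). Rpl14 had 187, 214 and 195 CPM in CAP2-/- hearts and 153, 167.9 and 153 CPM in WT hearts. These groups did not overlap (log2 fold change 0.33, SE 0.11, edgeR adjusted p = 0.233). Among the 40S genes, Rps21 had 21.9, 11.8 and 21.6 CPM in CAP2-/- hearts and 10.9, 10.9 and 15.0 CPM in WT hearts, with the second CAP2-/- library inside the WT range (log2 fold change 0.58, SE 0.23, edgeR adjusted p = 0.364).

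The P-stalk, formed by the proteins of Rplp0, Rplp1 and Rplp2, recruits the GTPase factors of translation. Rplp1 had 149, 129 and 133 CPM in CAP2-/- hearts and 125, 100.5 and 112 CPM in WT hearts, without overlap (log2 fold change 0.28, SE 0.12, edgeR adjusted p = 0.404). Rplp2 had a log2 fold change of 0.18 and Rplp0 of -0.055, with adjusted p-values of 0.700 and 0.921. The stalk genes thus gave no call, and those of Rplp1 and Rplp0 had opposite signs. Rpsa, a 40S protein also known as the laminin receptor, had 116, 103 and 104 CPM in CAP2-/- hearts and 135, 122 and 111 CPM in WT hearts (log2 fold change -0.19, SE 0.12, edgeR adjusted p = 0.643).

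Levels per transcript length spread widely in experiment A. Rpl8 was near the top, with a mean of 383 CPM per kb over all libraries, and Rpl3l was the tenth highest of the 85 members with a length. At rank 9 stood Rps12l1, which GENCODE annotates as a processed pseudogene. It averaged 58.8 CPM in experiment A, where Rps12 averaged 4.62 CPM, and was at 0 in every library of experiment B. These levels and ranks can depend on how reads were assigned between related genes, which was not tested. The lowest tested member was Rps15a at 2.27 CPM per kb, a value that rests on a reference transcript of 5179 bases. The row named Rpl24 in experiment A carries the identifier of the neighbouring gene Zbtb11 and covers transcripts of both, so its level per length is not given.

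The second question was what these genes did in the young heart with Cre in cardiomyocytes. Of all members tested, Rpl3l had the largest difference. It had 981, 497, 223 and 775 normalized counts in Cre+ hearts, against 2103, 2331, 1730, 981 and 1670 in control hearts. The groups met at a single value, 981, held by Cre+ replicate 1 and by control replicate 4. The difference was 3.18-fold lower on the log2(value + 1) scale (log2 fold change -1.67, SE 0.42, limma adjusted p = 0.0687), which missed the threshold.

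The call on Rpl3l in experiment B turned on single libraries. Its adjusted p was 0.0339 without control replicate 4 (log2 fold change -1.85) and 0.0333 without Cre+ replicate 1, and 0.0474 in females alone and 0.0418 with no filter on low values. It was above the threshold under the other settings, and highest, at 0.277, with the mitochondrial share of each library as a covariate, where the log2 fold change was -1.08. Mitochondrially encoded genes made up 52.7%, 31.5%, 23.0% and 33.9% of the total in Cre+ hearts and 45.0%, 52.2%, 69.5%, 30.4% and 37.8% in control hearts. The log2 fold change was negative under all 18 settings, from -2.09 to -1.08.

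Rpl3 was higher in Cre+ hearts on average, with overlap. It had 1879, 1965, 2685 and 2094 normalized counts in Cre+ hearts, against 1058, 1349, 2257, 498 and 1522 in control hearts. Control replicate 3 lay within the Cre+ range, and the other controls lay below it (log2 fold change 0.76, SE 0.36, limma adjusted p = 0.241). Without control replicate 4 the log2 fold change was 0.52 with an adjusted p of 0.230.

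The ratio of Rpl3l to Rpl3 per transcript length separated the groups of experiment B. It was 0.513, 0.249, 0.0816 and 0.364 in Cre+ hearts and 1.95, 1.70, 0.753, 1.94 and 1.08 in control hearts. All Cre+ libraries were below all control libraries, with Rpl3l under Rpl3 in each Cre+ library and above it in 4 of the 5 controls. Control replicate 4 had a ratio close to that of control replicate 1. The ratio was 5.61-fold lower in Cre+ hearts (difference of the mean log2 ratios -2.49, exact two-sided permutation p = 0.0159, 0.0952 after adjustment over the 12 ratios). Without control replicate 4 the difference was -2.37 (exact permutation p = 0.0286), and among females -2.64, where 3 against 3 allow no p under 0.1.

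**Figure D3:**
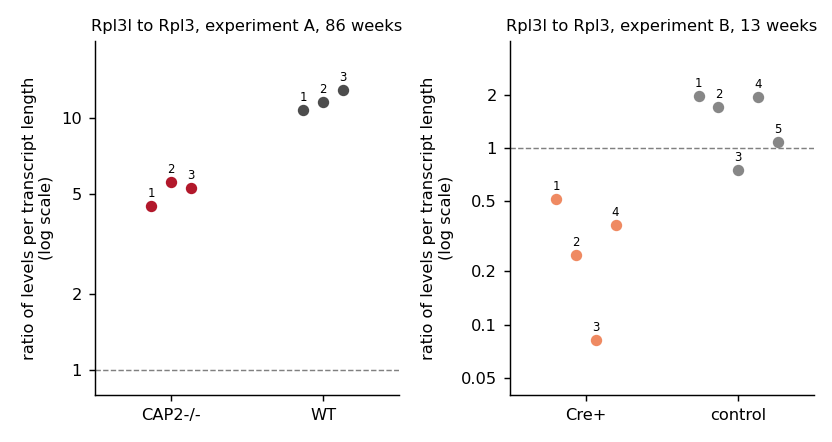
Ratio of the level of Rpl3l to that of Rpl3, each per transcript length, in each library (points, numbered by replicate), on a log axis with a dashed line at equal levels. The ratio is 4.45 to 5.55 in CAP2-/- and 10.7 to 12.8 in WT in experiment A, and 0.0816 to 0.513 in Cre+ and 0.753 to 1.95 in controls in experiment B.

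Markers of cell types were read beside these values. In experiment A, 0 of 12 cardiomyocyte markers were called, and their summed level ranged from 108999 to 125163 CPM in CAP2-/- hearts and from 120102 to 126447 CPM in WT hearts. In experiment B, 1 of 12 was called lower, Pln, the regulator of the calcium pump, and the sum ranged from 231405 to 343486 normalized counts in Cre+ hearts and from 279804 to 442602 in control hearts. Fibroblast markers were called higher for 1 of 10 in experiment A, the matrix gene Mfap5, and for 2 of 10 in experiment B, Mfap5 and Postn. Their sum ranged from 3162 to 3390 CPM in CAP2-/- and 2613 to 3047 CPM in WT, and from 28434 to 51018 normalized counts in Cre+ and 8519 to 31335 in controls. Pln (limma adjusted p = 0.00750) and Mfap5 (0.0127) were also called without control replicate 4, and Postn was not (0.0758). Of the endothelial, macrophage, lymphocyte and erythroid markers, 0 were called in either experiment. In experiment B the log2 fold change was nevertheless positive for all 10 macrophage markers (median 0.65) and all 6 erythroid markers tested (median 0.58). Most ribosomal protein genes had that sign there. The log2 fold change was positive for 6 of 10 endothelial markers (median 0.32) and 1 of 3 lymphocyte markers tested (median -0.064). Without control replicate 4, it was positive for 9 macrophage markers (median 0.51) and 4 erythroid markers (median 0.13). It was then positive for 6 endothelial markers (median 0.15) and 1 lymphocyte marker (median of the list -0.21). It was positive for all 10 fibroblast markers, with a median of 1.30 with all libraries and of 1.27 without control replicate 4. Of the 12 cardiomyocyte markers, 8 were negative as Rpl3l was, with a median of -0.43, or -0.48 without control replicate 4. The part of cell makeup in the Rpl3l values was not tested.

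Some genes of skeletal muscle and atrium were also called. Of 9 skeletal muscle markers tested in experiment A, 1 was called higher, Casq1, and of 5 tested in experiment B, 4 were, Casq1, Tnni2, Tnnt3 and Atp2a1, also without control replicate 4. Atp2a1 was not called in experiment A (log2 fold change -0.090). Of 6 atrial markers tested in experiment A, 2 were called higher, Nppa and Dkk3, and 5 had a positive log2 fold change. Bmp10 was at 2.97 and Myl4 at 0.76 (edgeR adjusted p = 0.0612 and 0.0856), both without overlap, and Stard10 was at -0.38 (edgeR adjusted p = 0.257). The sum of the atrial markers was mostly Nppa, the gene of the atrial natriuretic peptide, which ventricles also express under load. It ranged from 3809 to 4550 CPM in CAP2-/- and from 73.6 to 116 CPM in WT, whereas the other 6 atrial markers summed to 55.7 to 62.3 CPM in CAP2-/- and 46.9 to 49.5 CPM in WT. In experiment B, 0 of 7 were called by limma. Nppa ranged from 80982 to 155401 normalized counts in Cre+ and from 0 to 2511 in controls, and the other 6 summed to 671 to 44132 in Cre+ and 109 to 7992 in controls. Nppa was called without control replicate 4 (limma adjusted p = 3.47e-06). The muscle-specific elongation factor Eef1a2, which like Rpl3l replaces a gene expressed more widely, averaged 1808 ± 80.8 CPM in CAP2-/- and 1873 ± 59.8 CPM in WT (SD, n = 3 each; edgeR adjusted p = 0.916). In experiment B it averaged 2016 ± 440 normalized counts in Cre+ (SD, n = 4) and 3483 ± 1539 in controls (SD, n = 5; log2 fold change -0.62, limma adjusted p = 0.284, or -0.50 and 0.326 without control replicate 4).

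Across the family in experiment B, 83 of 92 members had a mean of at least 10 and were tested. The other 9 were Rpl10l, Rpl32l, Rpl37rt, Rpl39l, Rpl6l, Rps12l1, Rps27rt, Rps3a2 and Rps3a3, of which Rpl10l and Rps12l1 were at 0 in every library. None was called by limma in either direction, against 0.947% of all 12141 genes tested called higher and 0.931% called lower. At an unadjusted p under 0.05, 2 members were higher, Rpl22l1 and Rps27l, or 2.41%, against 7.89% of all genes, and 1 lower, Rpl3l, or 1.20%, against 14.2%. The groups did not overlap for 0 members in either direction, against 3.87% of all genes higher and 4.79% lower.

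The signs of the members nevertheless lay to one side in experiment B. The log2 fold change was positive for 82 of the 83, the exception being Rpl3l, with a median of 0.34, against -0.12 over all genes tested. After TMM scaling 82 were positive, and after quantile normalization 81. Without control replicate 4, 67 were positive with a median of 0.12, and in females alone 44 were positive with a median of 0.027. The summed share of the members in the nuclear genes was 4.58%, 3.87%, 4.70% and 4.93% in Cre+ hearts, against 3.79%, 4.64%, 5.45%, 1.48% and 3.79% in control hearts. Control replicate 4 held the lowest share and control replicate 3 the highest, with all Cre+ libraries between them.

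**Figure D4:**
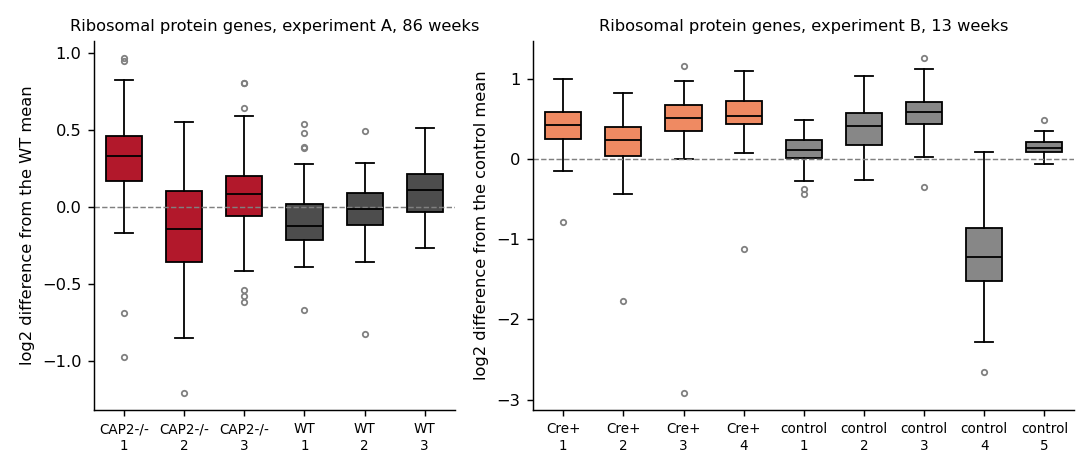
Log2 difference of each tested ribosomal protein gene from the mean of its WT or control group, by library, for 84 genes in experiment A and 83 in experiment B (box: quartiles, line: median, circles: outlying genes). Medians lie between -0.14 and 0.33 in experiment A, while control replicate 4 of experiment B has a median of -1.22 and the lone low circle in each Cre+ library is Rpl3l.

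Rpl22l1 encodes a paralog of Rpl22, an RNA-binding protein of the large subunit. It had 216, 217, 323 and 294 normalized counts in Cre+ hearts, against 145, 159, 228, 141 and 220 in control hearts. The ranges overlapped (log2 fold change 0.58, SE 0.24, limma adjusted p = 0.196, or 0.48 and 0.207 without control replicate 4). Its ratio to Rpl22 per transcript length differed by 0.51 on the log2 scale (exact two-sided permutation p = 0.0159, adjusted p = 0.0952), and by 0.52 without control replicate 4 (exact permutation p = 0.0286). In experiment A the same ratio gave -0.25 with an exact permutation p of 0.3, so the sign was not shared.

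Rps27l, a paralog of Rps27 known as a target of p53, had 326, 364, 340 and 362 normalized counts in Cre+ hearts, against 259, 279, 192, 184 and 343 in control hearts. All but control replicate 5 lay below the Cre+ libraries (log2 fold change 0.52, SE 0.23, limma adjusted p = 0.217, or 0.40 and 0.224 without control replicate 4). Rpl39, a short protein lining the peptide tunnel, gave 0.50 (adjusted p = 0.277), or 0.36 without that library. The 40S gene Rps26 gave 0.67 (adjusted p = 0.301), or 0.38 without it (adjusted p = 0.268). The gene of the stalk with the highest level per length in experiment B, Rplp1, had 6861, 6078, 6417 and 7396 normalized counts in Cre+ hearts, against 4068, 6167, 6964, 729 and 3814 in control hearts, where control replicate 4 stands apart from the rest (log2 fold change 0.80, SE 0.49, limma adjusted p = 0.355). The log2 fold change of Rplp1 was 0.39 without control replicate 4 (SE 0.24, limma adjusted p = 0.343). That of Rpsa was 0.28, or 0.016 without that library and -0.14 in females alone.

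Rps4l, called lower in experiment A, had 149, 115, 194 and 180 normalized counts in Cre+ hearts, against 126, 231, 128, 47 and 134 in control hearts. The groups overlapped broadly, and the log2 fold change was 0.32 (SE 0.37, limma adjusted p = 0.635), 0.065 without control replicate 4 (adjusted p = 0.905) and -0.055 in females alone. Its ratio to Rps4x was 2.18-fold lower in CAP2-/- than in WT hearts (exact permutation p = 0.1), while in experiment B the difference was 0.18 on the log2 scale (exact permutation p = 0.619), or 0.077 without control replicate 4. Whether Rps4l differs between the experiments was not tested, since each has a table of its own.

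The remaining paralogs gave no call in either experiment. Rpl36al differed by 0.29 in experiment A and 0.36 in experiment B on the log2 scale, Rpl7l1 by -0.029 and 0.12, and Rps27l by 0.37 in experiment A. Their ratios to Rpl36a, Rpl7 and Rps27 had exact permutation p-values of 0.381 to 1 in both experiments with all libraries. In experiment B the log2 ratio of Rps27l to Rps27 differed by 0.26, or by 0.46 without control replicate 4 (exact permutation p = 0.229). The ratios of Rpl36al and Rpl7l1 had exact permutation p-values of 0.686 and 0.914 without that library. Of the partner genes, Rpl7 gave -0.0089 and 0.25, Rpl10 0.16 and 0.51, Rpl22 0.086 and 0.059, and Rpl36a 0.34 and 0.56. Without control replicate 4, the values of experiment B were 0.20 for Rpl36al, 0.11 for Rpl7l1, 0.097 for Rpl7, 0.35 for Rpl10, -0.036 for Rpl22 and 0.32 for Rpl36a. Of the paralogs tested in both experiments, only Rpl3l had a negative sign in both with all libraries or without control replicate 4. With females alone in experiment B, Rps4l was negative in both experiments too. Rpl36al was then negative in experiment B but positive in experiment A.

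**Figure D5:**
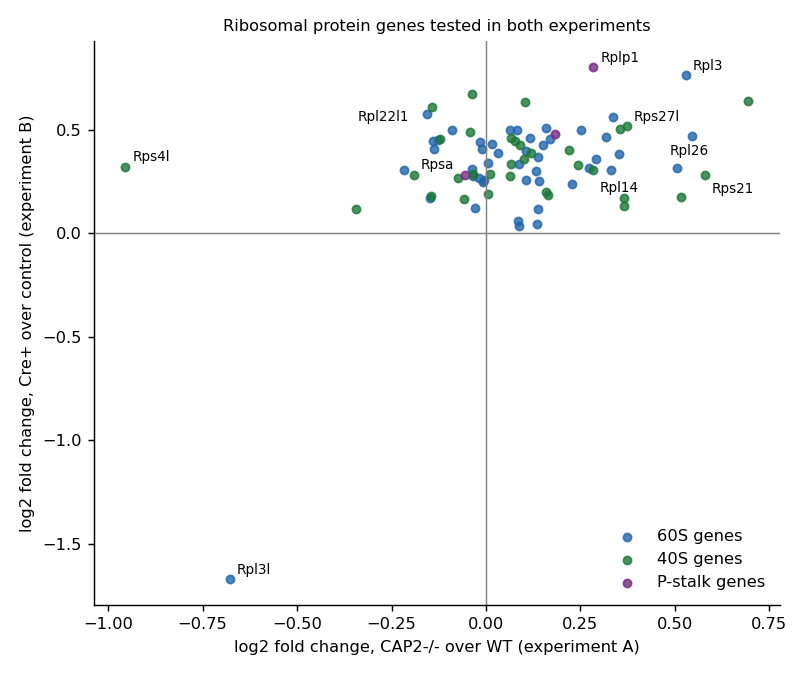
Log2 fold change of each of the 82 ribosomal protein genes tested in both experiments, CAP2-/- over WT on the horizontal axis and Cre+ over control on the vertical axis, coloured by subunit. Rpl3l lies at -0.68 and -1.67 and is the only gene in the lower left, and no gene lies in the lower right.

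Of the 82 members tested in both experiments, 54 had a positive log2 fold change in both, 27 a negative one in experiment A and a positive one in experiment B, 0 the reverse, and 1, Rpl3l, a negative one in both. Without control replicate 4, 16 were negative in experiment B and 44 positive in both experiments. The experiments share no libraries, but differ in age, kit, allele and sex.

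Other genes of the translation machinery were read from lists of their own. Of 14 elongation factor and other genes with pyrimidine-tract mRNAs, 0 were called in either experiment, with medians of 0.16 in experiment A (12 positive) and 0.24 in experiment B (13 positive), or 0.21 (12 positive) without control replicate 4. Eef1a1, the general elongation factor, averaged 405 ± 17.9 CPM in CAP2-/- and 350.1 ± 18.05 CPM in WT (SD, n = 3 each; log2 fold change 0.21, edgeR adjusted p = 0.530). The host genes of small nucleolar RNAs with such mRNAs were positive for 2 of 2 tested in experiment A and 6 of 6 in experiment B, with 0 called; Gas5 gave 0.60 and 0.63. These genes were 3.72-fold lower at the median in control replicate 4 than in the other controls. Without it the same 6 were positive in experiment B, with a median of 0.35 in place of 0.70, and Gas5 gave 0.34.

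The machinery that makes ribosomes gave no call either. Of 33 ribosome biogenesis genes, 17 were positive in experiment A (median 0.003) and 18 in experiment B (median 0.14, or 0.17 without control replicate 4), and 0 were called. Nucleolin, Ncl, averaged 166.6 ± 9.64 CPM in CAP2-/- and 139.7 ± 0.405 CPM in WT (SD, n = 3 each; log2 fold change 0.25, edgeR adjusted p = 0.411). The 5 chaperones of single ribosomal proteins, among them Grwd1, that of RPL3, gave 0 calls, with Grwd1 at -0.19 in experiment A. Of 13 regulators of pyrimidine-tract mRNAs tested in experiment A, 4 were positive (median -0.16). Of 12 tested in experiment B, 2 were positive (median -0.27), and 2 without control replicate 4 (median -0.22). In experiment B 1 of the 12 was called higher, Myc, the transcription factor known to drive ribosome production. It averaged 45.8 ± 14.5 normalized counts in Cre+ (SD, n = 4) and 13.2 ± 8.81 in controls (SD, n = 5; log2 fold change 2.01, SE 0.36, limma adjusted p = 0.0247), and was also called without control replicate 4 (log2 fold change 1.90, limma adjusted p = 0.0194). In experiment A the log2 fold change of Myc was -0.45 with an edgeR adjusted p of 0.633. Mtor and Tsc2 differed by -0.22 each in experiment A and were not called.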

How the data were processed

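Per the file headers, experiment A is a table that the authors deposited as estimated counts for genes and exons, 26.5% of gene values above 0 being whole, with a second table of log2 fold changes, p-values and a mean normalized signal whose columns are named as in DESeq2 output. The values deposited for experiment B are whole normalized counts, treated as a score since no source states how they were scaled. STAR 2.6.0c, DESeq and mm10 are named by the submitters' processing notes, without a role. The read counter and its use of strand were not given in the sources used here. A further Cre+ library was not analysed here.

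Estimated counts were rounded and tested with edgeR 4.0.16 (TMM, filterByExpr, robust quasi-likelihood test; R 4.3.3). CPM is relative to the TMM-adjusted total of the tested genes, for exon rows too. In experiment B, genes averaging 10 or more were fitted by robust limma-trend (limma 3.58.1) with a sex term, on values log2-transformed after adding 1, which understates the change of low genes. P-values were adjusted by Benjamini-Hochberg over all genes tested, and called means an adjusted p under 0.05. Both fits were tested on simulated data. DESeq2 1.42.0 was an alternative. Ratios were compared with exact permutation tests (scipy 1.17.1). Coding sequences and gene positions came from GENCODE M21, aligned with Biopython 1.88, and promoters from RefSeq (GRCm38.p6), matched by symbol. A level per length divides by the transcript with the longest coding sequence.

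The members, the gene lists and the tests were chosen with earlier results of these data known. Genes named are Rpl3l, Rpl3, the other paralog pairs, the stalk genes, Rpsa, called members and the 6 members with the smallest p in each experiment. Members at the highest and lowest level per length are named too, and of other lists the called genes and up to 4 with the smallest p. Rpl8, Rpl10a, Rps12, Grwd1 and the members below the filter of experiment B were named after their values were seen. Some genes that this rule or the lists hold are not reported here. The labels do not say that replicates are separate animals, and p-values then measure only the spread between libraries. Alternatives covered the filter, scaling, pseudocount, sex, mitochondrial share, a replicate block and each library left out.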

Additional observations from a re-analysis of the deposited data

Results flagged for a closer look

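Of 54 groups of 4 or 5 libraries examined for an outlying library, 2 held one, where chance gives about 1 in 20. Rpl7l1, a paralog of Rpl7, was at 158 normalized counts in control replicate 1, far below the other controls for the spread of that group. Rpsa was at 5766 normalized counts in Cre+ replicate 2, below the other Cre+ libraries by more than the spread among them.

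Rpsa had opposite signs in the experiments with all libraries. Its log2 fold change was -0.19 in CAP2-/- over WT, with each CAP2-/- library below the WT mean, and 0.28 in Cre+ over control, with each Cre+ library above the control mean. Without control replicate 4 the control mean was 6448 normalized counts, Cre+ replicate 2 lay below that mean, and the log2 fold change was 0.016. Neither was called, and the difference between the experiments was not tested.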

How the results depend on the processing

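In experiment A, Rpl3l kept its call under all 12 settings, while the count of genes called was 220 in all, 512 with no filter, 402 with DESeq2, lower by less than 1.5 times with the replicate block, and 126 to 275 with a library left out. With no filter, 1 ribosomal protein gene, Rpl26, was called higher; with a library left out, 1 to 2 were called lower and the median log2 fold change of all 84 ranged from -0.065 to 0.21. In experiment B, 228 genes were called, 346 with no filter, 36 with the mitochondrial share as a covariate, 394 with the replicate block, which also leaves out control replicate 5 as it has no partner (525 without that library and no block), and 39 to 695 with a library left out. There 1 ribosomal protein gene, Rpl3l, was called lower with no filter (log2 fold change -1.67) and in females (-2.09), and 0 to 1 with a library left out, where its log2 fold change ranged from -2.09 to -1.25. The log2 ratio of Rpl3l to Rpl3 differed by -2.64 in females, where 3 against 3 libraries allow no smaller p than 0.1. No called member changed sign. Over all members tested, 56 of 84 were positive in experiment A, and 36 without CAP2-/- replicate 1. In experiment B, 82 of 83 were positive, and 44 in females alone. Among the members named by the rule above, 16 log2 fold changes that were not called changed sign, in 1 experiment each. With a library left out in experiment A, Rpl22l1 ranged from -0.35 to 0.027, Rpl7l1 from -0.12 to 0.041, Rpl7 from -0.23 to 0.14, Rplp0 from -0.10 to 0.035 and Rps26 from -0.18 to 0.20. In experiment B the lowest of these came without Cre+ replicate 4, the only male of its group, and equalled the value in females alone. The ranges were -0.10 to 0.23 for Rpl22, -0.24 to 0.34 for Rps27, -0.051 to 0.53 for Rpl36al, -0.055 to 0.57 for Rps4l, -0.10 to 0.41 for Rps4x, -0.22 to 0.66 for Rplp2, -0.14 to 0.41 for Rpsa, -0.057 to 0.48 for Rpl26, -0.050 to 0.40 for Rpl14, -0.37 to 0.53 for Rps21 and -0.10 to 0.24 for Rps15a. The cause of the other shifts was not tested. Same-numbered libraries did not deviate together (correlations of -0.17 to -0.031 in experiment A and -0.11 to 0.24 in experiment B), and the replicate block changed no call on a named member. The depth of experiment B is unknown, which leaves the precision of its low values open.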

Other observations

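Some paralog pairs stood at different relative levels in the 2 experiments, which differ in library kit, age and sex, so that the values are given side by side without a comparison. The mean log2 ratio of Rpl36al to Rpl36a per transcript length was 1.42 ± 0.28 in CAP2-/- and 1.49 ± 0.15 in WT (SD, n = 3 each), and -6.19 ± 0.38 in Cre+ (SD, n = 4) and -5.92 ± 0.38 in controls (SD, n = 5). That of Rps27l to Rps27 was 1.42 ± 0.89 in CAP2-/- and 1.39 ± 0.24 in WT, and -3.34 ± 0.26 in Cre+ and -3.60 ± 0.70 in controls. The summed share of the ribosomal protein genes averaged 0.471% ± 0.034 in CAP2-/- and 0.472% ± 0.0099 in WT, and 4.52% ± 0.46 in Cre+ and 3.83% ± 1.48 in controls. No mitochondrially encoded gene had counts in experiment A.

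In control replicate 4 of experiment B, several other lists were below the other controls as well, and some were above them. The median was 24.0-fold lower for the atrial markers, 6.68-fold for lymphocyte, 4.37-fold for erythroid and 2.07-fold for macrophage markers, 1.02-fold for cardiomyocyte markers, while Eef1a2 was 1.93-fold higher, the regulators of pyrimidine-tract mRNAs 1.35-fold higher and the chaperones of ribosomal proteins 1.08-fold higher. Over the 33 ribosome biogenesis genes it was 1.01-fold lower, against 2.89-fold for the ribosomal protein genes.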
